A study of Mus musculus with 6 samples.

Results

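The choroid plexus epithelium was followed through 35 genes, each found by its GENCODE M21 symbol, among 35523 genes measured in the whole forebrain of P20 mice. Of these 35 genes, 9 were grouped as secreted or matrix, 13 as transport, 4 as junction or keratin, 2 as transcription factor and 7 as receptor, enzyme or other. The transport group also holds 2 enzyme genes, the carbonic anhydrase gene *Car12* and the metalloreductase family gene *Steap1*. RNA came from 3 *Slc13a4*+/- mice, in which 1 allele of the sodium-coupled sulfate transporter gene *Slc13a4* is deleted, and from 3 wild-type mice. All 6 were C57BL/6 mice at postnatal day 20, and no further treatment or allele is named. The deletion is present in the whole animal rather than in 1 cell type. The controls are described as wild-type littermates, but which mice shared a litter is not known here. Where 3 values are given for a genotype, they stand in a fixed order, Nas2Del_Het_1024, Nas2Del_Het_1025 and Nas2Del_Het_1027 for *Slc13a4*+/- mice and Nas2Del_WT_1016, Nas2Del_WT_1018 and Nas2Del_WT_1026 for wild-type mice.

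The choroid plexus is a sheet of epithelial cells around leaky capillaries that hangs into the brain ventricles. Its epithelium secretes cerebrospinal fluid by moving sodium, chloride, bicarbonate and water from blood to ventricle, and tight junctions between the cells form the barrier between blood and cerebrospinal fluid. The same cells release carrier proteins, growth factor antagonists and enzymes into the fluid and take up vitamins such as folate for the brain. The sulfate transporter *Slc13a4* is itself known from the choroid plexus and also from the pia mater. The comparison of the genotypes asks which genes respond in the young forebrain when 1 allele is lost.

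The estimated counts summed to between 60340337 and 80410582 per mouse, and both genotypes spanned a similar depth. All 35 genes were detected in every mouse, the lowest value being 0.359 TPM for *Krt8* in Nas2Del_WT_1016, and all 35 were among the 17096 genes with enough counts to be tested. *Slc13a4* lay at 3.98, 4.39 and 3.56 TPM in *Slc13a4*+/- mice and at 6.65, 5.97 and 5.50 TPM in wild-type mice. The genotypes did not overlap, and the targeted gene was lower in the mice labelled heterozygous. Its mean was 5.86 ± 0.62 CPM (estimated counts relative to the library total) after TMM normalization in *Slc13a4*+/- and 9.35 ± 1.10 CPM in wild-type mice (SD, n = 3). This is a log2 fold change of -0.67 (SE 0.11). Its adjusted p was 0.50 by the quasi-likelihood test of edgeR, against 0.0024 in DESeq2 with length offsets.

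Levels between genes are given in TPM, which is scaled by transcript length. *Ttr* (chr18:20665280-20674321, GRCm38), which encodes the carrier of thyroxine and of retinol-binding protein and is the classical marker of this epithelium, was the most abundant of the 35 genes. Its level was 827, 717 and 724 TPM in *Slc13a4*+/- mice and 868, 859 and 865 TPM in wild-type mice. *Enpp2* (chr15:54838901-54952892), which encodes the secreted enzyme autotaxin that makes lysophosphatidic acid, followed at 385, 388 and 359 TPM in *Slc13a4*+/- and 406, 413 and 399 TPM in wild-type mice. In both genes every *Slc13a4*+/- mouse lay below every wild-type mouse. *Ttr* alone held 58.1% of the TPM summed over the 35 genes, and *Ttr* and *Enpp2* together held 86.2%. *Enpp2* is also known from oligodendrocytes, and its level in whole forebrain need not come from the choroid plexus alone.

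The remaining genes were far less abundant. A mean of at least 10 TPM was reached by 8 genes, and of at least 1 TPM by 33. *Cab39l*, which encodes a scaffold of the STK11 kinase complex, had 26.2, 24.0 and 25.3 TPM in *Slc13a4*+/- and 26.8, 28.5 and 26.0 TPM in wild-type mice. *Col9a3*, a collagen chain, had 21.7, 22.9 and 20.5 TPM against 25.0, 25.3 and 22.9 TPM. In these TPM values the genotypes overlapped for *Cab39l* and, by a small margin at 22.9 TPM, for *Col9a3*. The copper uptake transporter *Slc31a1* lay between 15.8 and 17.4 TPM over the 6 mice, the angiotensin-converting enzyme gene *Ace* between 10.1 and 10.99 TPM, and the monoamine transporter gene *Slc29a4* between 8.57 and 11.3 TPM. *Tmem72*, which encodes a transmembrane protein, spread more widely, from 7.86 to 15.2 TPM. The carbonic anhydrase gene *Car12* at 8.03 to 9.28 TPM and the folate receptor gene *Folr1* at 5.65 to 10.04 TPM completed the 10 most abundant genes. At the lower end stood *Slc16a8*, a lactate transporter gene, with a mean of 0.573 TPM and *Krt8*, a keratin gene of simple epithelia, with 0.565 TPM.

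**Figure D1:**
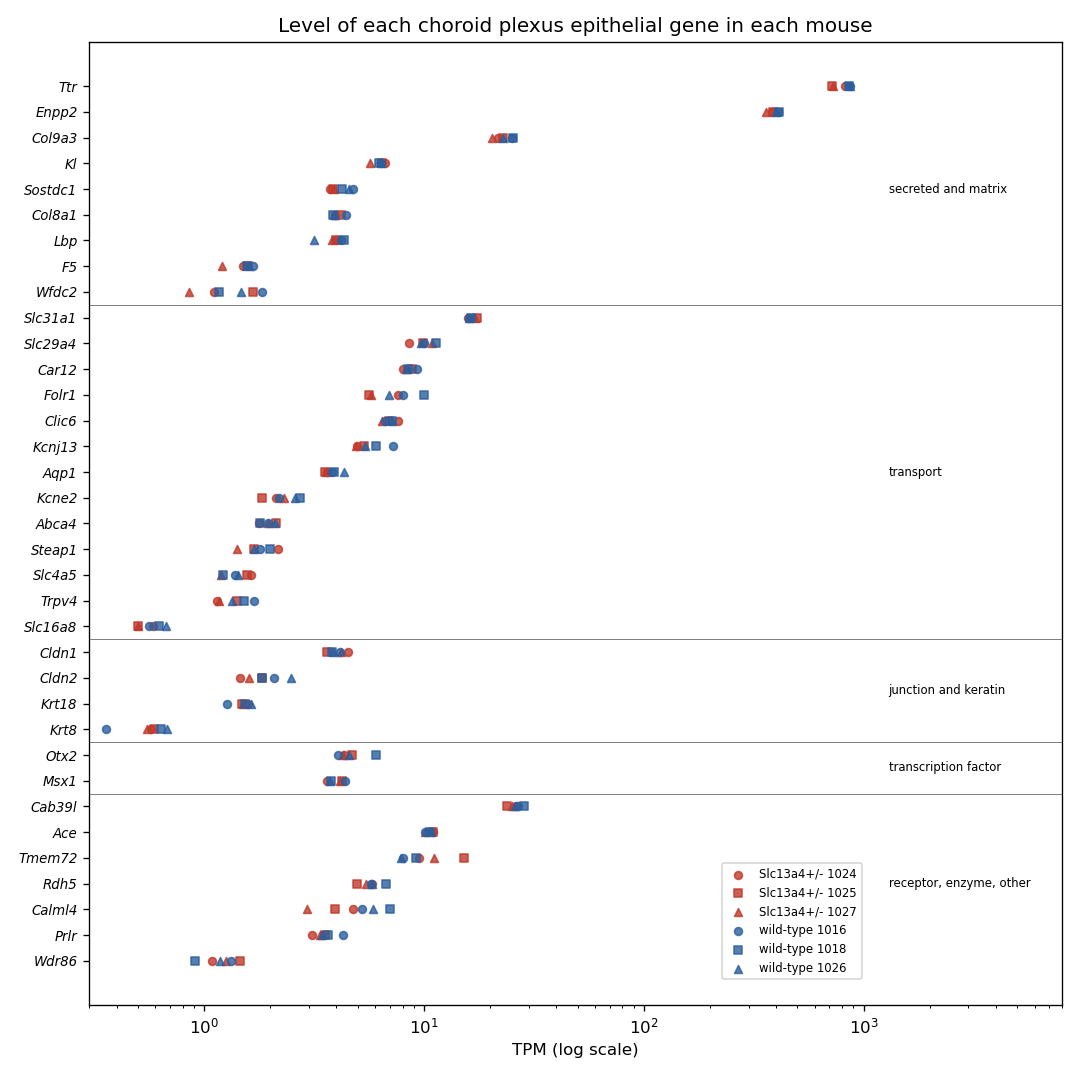
Level of each of the 35 genes in each of the 6 mice, in TPM on a log axis, with 1 row per gene grouped by role, red for Slc13a4+/- and blue for wild-type mice, and 1 marker shape per mouse within a genotype. *Ttr* and *Enpp2* stand far to the right of all other genes, whose means lie at or below 26.1 TPM.

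The levels of the different roles overlapped widely. Median levels were 4.18 TPM for the 9 secreted and matrix genes, 3.80 TPM for the 13 transport genes, 1.69 TPM for the 4 junction and keratin genes and 5.75 TPM for the 7 receptors, enzymes and others. The 2 transcription factor genes *Otx2*, which choroid plexus development needs, and *Msx1*, which the dorsal midline expresses, had means of 4.66 and 3.99 TPM. Secreted genes thus differed from transport genes chiefly through *Ttr*, *Enpp2* and *Col9a3*, as the other 6 lay between 1.35 and 6.29 TPM.

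Some of the 35 genes are shared with other tissues. The retinal pigment epithelium also uses *Otx2*, *Kcnj13*, *Rdh5* and *Slc16a8*, and its defining gene *Rpe65* lay at 0.277 to 0.487 TPM in the 6 mice. As the samples were isolated forebrain, this level does not tell which forebrain cells express the 35 genes. The defining choroid plexus genes *Ttr*, *Folr1* and *Kl*, the klotho gene, were all present, the last at 5.69 to 6.62 TPM. Forebrain tissue outside the choroid plexus also expresses several of the 35 genes, and how much of each value it gives was not tested.

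Genes with more than 1 start site were examined by transcript, since different starts can give different proteins. *Ace* makes the long somatic enzyme from its upstream start and a short form, known from the testis, from a start inside the gene. The long transcript Ace-201 took 72.2% to 87.4% of the *Ace* TPM in each mouse, Ace-203, which starts between both, took 10.6% to 27.8%, and the short transcript Ace-202 took 0% to 2.01%. *Kcne2* encodes an accessory subunit of potassium channels, and Kcne2-201 took 95.6% to 100% of its TPM against 0% to 4.39% for Kcne2-202, which starts downstream. In both genes the upstream start was thus the one with the larger share in all 6 mice. These shares are Salmon's division of reads between transcripts that overlap and cover no direct count of start sites. The 250 bases before each annotated RefSeq start (GRCm38, plus strand) are shown for these genes, because the more and the less used start can be set side by side. The region before the upstream *Ace* start is chr11:105967698-105967947 and holds the first 3 bases of Ace-201, and that before the inner start is chr11:105974939-105975188. The regions of *Kcne2* are chr16:92292139-92292388 and chr16:92295366-92295615. Capitals mark TAATCC, the core sequence bound by OTX factors.
Ace upstream start: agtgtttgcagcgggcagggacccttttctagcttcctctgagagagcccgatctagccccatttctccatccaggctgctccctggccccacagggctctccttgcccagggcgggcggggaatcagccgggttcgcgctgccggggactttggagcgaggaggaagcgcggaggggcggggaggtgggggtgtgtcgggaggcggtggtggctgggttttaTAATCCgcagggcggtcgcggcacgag
Ace inner start: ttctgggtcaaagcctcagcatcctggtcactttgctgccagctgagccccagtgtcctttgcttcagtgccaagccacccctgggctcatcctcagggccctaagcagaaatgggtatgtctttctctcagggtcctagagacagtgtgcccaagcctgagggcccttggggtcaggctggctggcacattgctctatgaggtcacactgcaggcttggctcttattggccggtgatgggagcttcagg
Kcne2 upstream start: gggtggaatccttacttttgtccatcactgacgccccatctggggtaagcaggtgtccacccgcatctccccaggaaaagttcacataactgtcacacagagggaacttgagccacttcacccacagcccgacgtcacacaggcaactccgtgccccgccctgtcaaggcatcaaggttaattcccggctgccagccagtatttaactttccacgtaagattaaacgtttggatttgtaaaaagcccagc
Kcne2 downstream start: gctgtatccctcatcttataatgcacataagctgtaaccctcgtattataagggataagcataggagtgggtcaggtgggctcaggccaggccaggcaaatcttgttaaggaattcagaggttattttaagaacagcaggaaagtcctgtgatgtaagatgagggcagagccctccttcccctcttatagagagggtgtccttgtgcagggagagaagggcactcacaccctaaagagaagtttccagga
The core TAATCC, searched on both strands, occurs once before the upstream *Ace* start and not in the other 3 windows. RefSeq windows were at hand for 28 of the 35 genes, and 3 of their 37 windows (8.11%) held the core, those of *Abca4*, *Ace* and *Otx2*. The share among all 32851 windows of the same length was 6.25%. A match is a description of the sequence, not a binding site.

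Of the 35 genes, 18 had 1 transcript with at least 95% of the gene's TPM, *Ttr* among them with its single transcript Ttr-201. In 16 genes more than 1 transcript reached 5%. *Enpp2* was divided between Enpp2-201 with 67.1% to 70.3%, Enpp2-202 with 17.5% to 20.0% and Enpp2-204 with 5.78% to 7.07%, and the genotypes overlapped in each share. *Otx2* had 41.0% to 63.8% in Otx2-201, where the genotypes overlapped. Otx2-202 did not overlap, with 17.1%, 21.3% and 17.3% in *Slc13a4*+/- and 6.07%, 2.59% and 0% in wild-type mice. It had at most 50.9 estimated counts in a mouse. The 710-base transcript of *Calml4* was also apart, at 17.6%, 24.1% and 24.8% against 3.91%, 13.8% and 13.9%, on at most 17.5 counts. Differences in share were not tested. *Rdh5* was divided chiefly between Rdh5-201 with 35.4% to 45.7% and Rdh5-202 with 23.5% to 35.6%.

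The spread over the 6 mice of both genotypes was larger in the median of these genes than in the median of all genes. It includes the difference between the genotypes, and the spread within genotypes was not compared with that of all genes. The SD of log2 CPM over the 6 mice had a median of 0.145 over the 35 genes, against 0.0849 over all genes tested, and ran from 0.0466 for *Slc31a1* to 0.469 for *Calml4*, a calmodulin-like gene. *Ttr*, with an SD of 0.145, had 433 ± 3.25 CPM in wild-type and 373 ± 33.6 CPM in *Slc13a4*+/- mice (SD, n = 3). Genes of lower counts vary more through counting alone, and *Calml4* had only 62 to 141 estimated counts per mouse. *Tmem72*, with 4398 to 8509 estimated counts, had an SD of 0.344 at far higher counts.

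Co-variation between the genes was described over the same 6 mice. Each gene was set against the mean of the other 34 genes on the log2 CPM scale, where genes that follow the amount of 1 tissue would have a high r. The slope is relative to that mean, which also holds genes that do not follow the others, so a slope of 1 does not mark a common amount. A Pearson r of at least 0.8 was found for 11 genes and of at least 0.5 for 23, while 12 lay under 0.5 and 7 of these under 0. *Enpp2* had the highest r, 0.99, with a slope of 1.03. *Prlr*, the prolactin receptor gene, had r = 0.97 and a slope of 1.57, and *Col9a3* had r = 0.92 and a slope of 1.22. *Calml4* also moved with the others at r = 0.94, but its slope was 5.72. *Ttr* had r = 0.81 and a slope of 1.34. These values share the 6 libraries and the difference between the genotypes, and no p is given.

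The 12 genes that followed the others least held 3 of the 4 junction and keratin genes. Their r was -0.27 for the tight junction gene *Cldn1*, -0.16 for *Krt8* and -0.10 for its keratin partner *Krt18*. The remaining tight junction gene, *Cldn2*, which forms a pore for sodium and water, had r = 0.77. Among transport genes *Slc31a1* had -0.33, *Kcne2* 0.38 and *Clic6*, a chloride channel-like gene, 0.47. Among secreted genes *Lbp*, which encodes a protein that binds bacterial lipopolysaccharide, had 0.20 and *Col8a1*, a collagen chain, 0.41. *Msx1* had -0.04, *Ace* 0.28, *Wdr86* -0.50 and *Tmem72* -0.57. The genes with low r came from every role and from high levels (*Slc31a1*) as well as low ones (*Krt8*).

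Over the 595 pairs of genes the median r was 0.35, and 419 pairs (70.4%) lay above 0. The share among pairs of all genes was not computed. When each gene was taken as its deviation from the mean of its genotype, the median r was 0.15 and 61.0% of pairs lay above 0. The co-variation was smaller within the genotypes than over all 6 mice. It also depended on the scale, with a median r of 0.14 on log2 TPM, and on single mice, with 0.46 without Nas2Del_Het_1024 and 0.20 without Nas2Del_Het_1027.

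Between the genotypes most of the 35 genes were slightly lower in *Slc13a4*+/- mice, and none passed the adjusted threshold of 0.1 in edgeR. A log2 fold change below 0 was found for 28 of 35 genes (80.0%), against 52.2% of all genes tested, and the median was -0.14 against -0.0045. The smallest adjusted p of the 35 genes was 0.50, and edgeR called 0.00585% of all genes tested. At an unadjusted p under 0.05 in edgeR, 11 of the 35 genes (31.4%) were lower, against 4.17% of all genes tested, and 1 was higher, against 4.98%. The count of lower genes was smaller in other fits, with 9 in edgeR with length offsets. DESeq2 gave 6 with length offsets and 5 without. With single mice left out it was 5 to 11 in edgeR and 2 to 8 in DESeq2. Shares over all genes were not computed for these fits. All 3 *Slc13a4*+/- mice lay below all 3 wild-type mice in CPM for 14 genes (40.0%), against 7.7% of all genes tested, and above them for 1 gene, against 7.26%. The other 20 genes overlapped. The separation of the 14 genes depended on the scale. In TPM the genotypes overlapped for *F5*, *Wfdc2*, *Col9a3*, *Slc4a5*, *Abca4*, *Prlr* and *Rdh5* of these. DESeq2, which called 0.487% of genes with length offsets and 0.311% without, called 1 of the 35 genes, *Ttr* in either form. In bulk tissue, fewer cells of a type and less RNA per cell cannot be told apart.

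**Figure D2:**
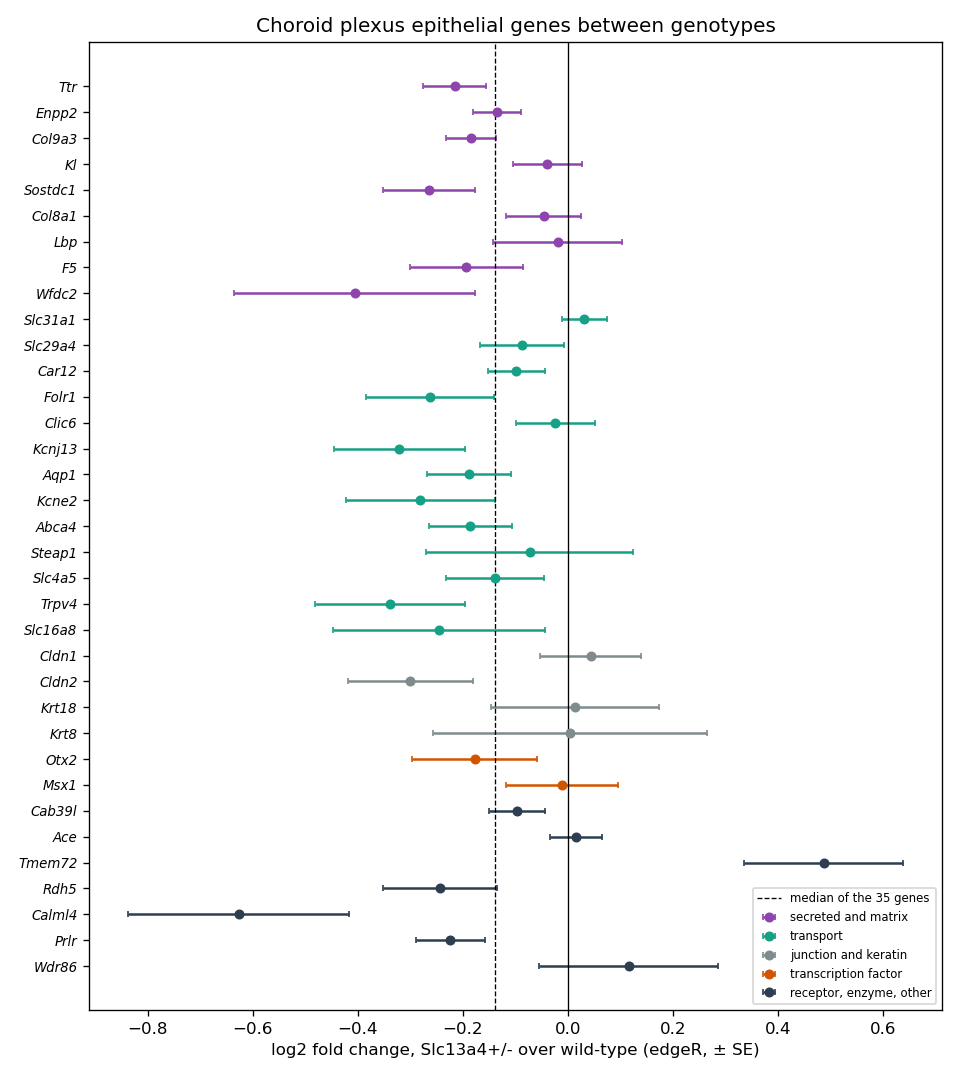
Log2 fold change of each of the 35 genes between Slc13a4+/- and wild-type mice from edgeR, with bars of 1 SE, coloured by role; the solid line marks no difference and the dashed line the median of the 35 genes. Points left of the solid line, 28 of 35, are lower in Slc13a4+/- mice, *Calml4* lies farthest left at -0.63 and *Tmem72* farthest right at 0.49.

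Among the secreted and matrix genes all 9 had a log2 fold change below 0, with a median of -0.18, and 4 had an unadjusted p under 0.05. *Ttr* was measured at 412, 353 and 354 CPM in *Slc13a4*+/- mice and at 437, 433 and 430 CPM in wild-type mice. The 3 wild-type mice lay close together above all *Slc13a4*+/- mice, and Nas2Del_Het_1024 lay nearer to them than to the other *Slc13a4*+/- mice. The means were 373 ± 33.6 and 433 ± 3.25 CPM (SD, n = 3), a difference of -13.9%. On the log2 scale this was -0.22 (SE 0.060), and edgeR gave it an adjusted p of 0.50. DESeq2 called it at an adjusted p of 0.092 with length offsets and 0.073 without. With length offsets and single mice left out, the DESeq2 adjusted p was 1.43e-08 without Nas2Del_Het_1024, 0.033 without Nas2Del_WT_1026 and 0.329 to 0.808 without any of the other 4. The log2 fold change was -0.30, -0.23 and -0.22 to -0.18 in these fits, so that the call was lost at values close to that of all 6 mice. Over all genes with an adjusted p, DESeq2 called 0.732% without Nas2Del_Het_1024 and 6.54% without Nas2Del_WT_1026.

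*Enpp2* had 519, 512 and 471 CPM in *Slc13a4*+/- and 552, 560 and 536 CPM in wild-type mice, a log2 fold change of -0.13 (SE 0.046). *Col9a3* (chr2:180597790-180622189) had 27.3, 27.3 and 25.9 CPM against 31.4, 31.4 and 28.6 CPM, a log2 fold change of -0.18 (SE 0.048). *Sostdc1*, a secreted antagonist of BMP and Wnt signals, had 2.92, 2.99 and 3.01 CPM against 3.76, 3.38 and 3.59 CPM, a log2 fold change of -0.27 (SE 0.088). In these 3 genes the groups did not overlap, and the adjusted p of each in edgeR was 0.50. Without Nas2Del_WT_1026, edgeR called *Col9a3* at an adjusted p of 0.092 (log2 fold change -0.23), in a fit that called 223 of all genes tested (1.29%) instead of 1. The coagulation factor V gene *F5* at -0.19 and *Wfdc2*, a gene of the whey acidic protein family, at -0.41 also had separate groups in CPM, though not in TPM. Neither reached an unadjusted p of 0.05 in edgeR. Both differences were smaller without Nas2Del_Het_1027, at -0.079 for *F5* and -0.27 for *Wfdc2*. *Wfdc2* rests on 21 to 38 estimated counts per mouse. *Kl* at -0.04, *Col8a1* at -0.05 and *Lbp* at -0.02 had overlapping groups.

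Of the transport genes 12 of 13 had a log2 fold change below 0, with a median of -0.19, and 4 had an unadjusted p under 0.05. The inward rectifier potassium channel gene *Kcnj13* had 2.66, 2.85 and 2.59 CPM in *Slc13a4*+/- and 3.94, 3.29 and 2.91 CPM in wild-type mice, a log2 fold change of -0.32 (SE 0.12). *Aqp1*, the water channel of the ventricular face of the cells, had 4.33, 4.18 and 4.20 CPM against 4.61, 4.70 and 5.15 CPM, a log2 fold change of -0.19 (SE 0.080). *Abca4*, a transporter of retinoid lipids, had 4.81, 5.32 and 4.61 CPM against 5.57, 5.51 and 5.68 CPM, again with -0.19 (SE 0.079). Without Nas2Del_WT_1016 the value of *Kcnj13* was -0.19. The genotypes did not overlap in these 3 transport genes, whose adjusted p in edgeR lay between 0.52 and 0.54. For *Abca4* the difference was -0.03 in DESeq2 with length offsets, and its TPM overlapped between the genotypes. The osmotically gated cation channel gene *Trpv4* lay at -0.34 (SE 0.14) with overlapping groups.

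The other transport genes lay closer to 0 or spread more. The values were -0.26 for *Folr1*, -0.28 for *Kcne2* and -0.25 for *Slc16a8*, all with overlapping groups, and *Folr1* had -0.42 in DESeq2 with length offsets. The bicarbonate cotransporter gene *Slc4a5* had separate groups in CPM at -0.14, but 0.09 in the fits with length offsets, so that its direction depends on the length correction, and -0.081 in edgeR without Nas2Del_WT_1016. *Car12* at -0.10, *Slc29a4* at -0.09, *Steap1*, a metalloreductase family gene, at -0.07 and *Clic6* at -0.02 overlapped. *Slc31a1* was the only transport gene above 0, at 0.03 (SE 0.042), in edgeR.

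Of the 4 junction and keratin genes, 1 lay below 0. *Cldn2* had 2.03, 2.52 and 2.10 CPM in *Slc13a4*+/- and 2.93, 2.58 and 2.67 CPM in wild-type mice, with separate groups and a log2 fold change of -0.30 (SE 0.12, adjusted p 0.53 in edgeR). *Cldn1* had 0.04 (SE 0.096), *Krt18* 0.01 (SE 0.16) and *Krt8* 0.00 (SE 0.26), and the groups of these 3 overlapped. The direction of these 3 turned when single mice were left out. The transcription factor genes *Otx2* at -0.18 (SE 0.12) and *Msx1* at -0.01 (SE 0.11) overlapped as well. *Otx2* had -0.087 without Nas2Del_WT_1018 and -0.10 without Nas2Del_Het_1027.

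Of the 7 receptors, enzymes and others, 4 had a log2 fold change below 0, and the lowest and the highest values of the 35 genes both lay here. *Calml4* had 1.47, 1.29 and 0.829 CPM in *Slc13a4*+/- and 1.64, 2.10 and 1.81 CPM in wild-type mice. The groups did not overlap, the mean difference was -35.4%, and the value on the log2 scale was -0.63 (SE 0.21; edgeR adjusted p 0.50). *Prlr* had 9.53, 9.98 and 8.80 CPM against 10.8, 11.4 and 10.9 CPM, again without overlap, at -0.22 (SE 0.065, adjusted p 0.50 in edgeR). In TPM the genotypes overlapped for *Prlr*. *Rdh5*, a retinol dehydrogenase gene, had separate groups in CPM but not in TPM, at -0.24 (SE 0.11). *Cab39l* at -0.10, *Ace* at 0.02 and *Wdr86* at 0.12 overlapped. *Wdr86* ran from -0.025 without Nas2Del_WT_1018 to 0.22 without Nas2Del_WT_1016.

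*Tmem72* (chr6:116679063-116716913) went against the other genes. It had 77.4, 123 and 89.1 CPM in *Slc13a4*+/- mice and 66.1, 76.1 and 64.3 CPM in wild-type mice. Every *Slc13a4*+/- mouse was above every wild-type mouse, by a narrow gap between 76.1 and 77.4 CPM, and Nas2Del_Het_1025 was highest. The means were 96.5 ± 23.8 and 68.8 ± 6.38 CPM (SD, n = 3), a difference of 40.2%. On the log2 scale this was 0.49 (SE 0.15). Its adjusted p came to 0.50 in edgeR and 0.61 in DESeq2 with length offsets, and the log2 value ran from 0.27, without Nas2Del_Het_1025, to 0.63 when single mice were left out. edgeR called it when genes of low counts were not filtered out (adjusted p 0.018), a fit that called 0.513% of all genes. DESeq2 called it without Nas2Del_Het_1024 (log2 fold change 0.62, adjusted p 0.0012). Its annotated transcript Tmem72-201 holds 99.1% to 100% of its TPM and is 17152 bases long, and only 57 of the 115973 transcripts are longer. Annotated retained-intron transcripts took 2.02%, 2.44% and 2.14% of the counts in *Slc13a4*+/- mice and 1.85%, 2.004% and 1.80% in wild-type mice, the order of mice within each genotype being the same as that of *Tmem72*. All TPM of *Tmem72* lay in Tmem72-201 and the nonsense-mediated decay transcript Tmem72-202, neither of them a retained-intron transcript. Leaving out retained-intron transcripts thus removed none of its counts, and its log2 fold change of 0.50 in that fit says nothing about introns. The part of unspliced RNA in its level was not tested.

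**Figure D3:**
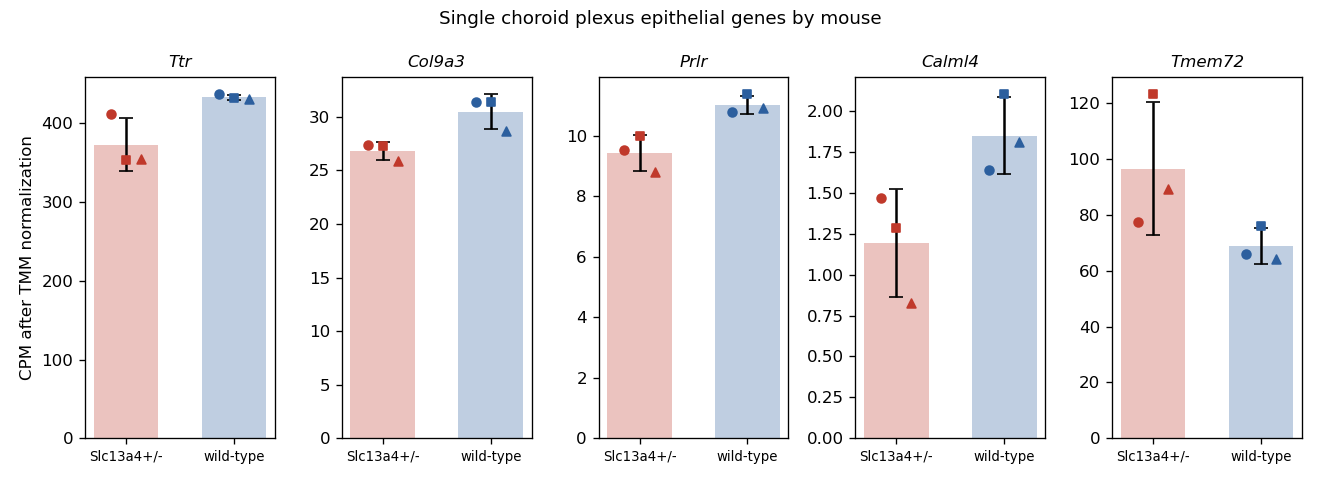
CPM after TMM normalization of 5 genes in each mouse, with bars for the mean of 3 mice from 0, error bars of 1 SD and points for single mice. Slc13a4+/- mice lie below wild-type mice for *Ttr*, *Col9a3*, *Prlr* and *Calml4* and above them for *Tmem72*, where Nas2Del_Het_1025 reaches 123 CPM.

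Taken over all 35 genes, the mean log2 TPM was 2.28, 2.32 and 2.20 in *Slc13a4*+/- mice and 2.37, 2.39 and 2.36 in wild-type mice. The genotypes did not overlap, with means of 2.27 ± 0.060 and 2.37 ± 0.017 (SD, n = 3) and a difference of -0.10 on the log2 scale. As a geometric mean this is 4.81 TPM against 5.17 TPM. The TPM summed over the genes, which *Ttr* and *Enpp2* dominate, was 1397, 1296 and 1264 in *Slc13a4*+/- and 1471, 1476 and 1453 in wild-type mice, a difference of -10.1%. No p is given for these scores, since the genes were chosen.

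Secreted and transport genes were then compared within each mouse. The mean log2 TPM of the 9 secreted genes was 3.54 ± 0.11 in *Slc13a4*+/- and 3.67 ± 0.072 in wild-type mice (SD, n = 3), and that of the 13 transport genes was 1.75 ± 0.047 and 1.88 ± 0.029. The genotypes overlapped for the secreted genes and not for the transport genes. The secreted minus the transport mean was 1.77, 1.87 and 1.72 in *Slc13a4*+/- and 1.88, 1.73 and 1.78 in wild-type mice. Both genotypes had a mean of 1.79, with an SD of 0.075 and 0.077, and the difference of -0.01 was smaller than the spread between mice. A shift of one role against the other was not detectable with 3 mice per genotype.

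*Slc13a4* itself followed the 35 genes at r = 0.90 over the 6 mice, a value that includes the difference between the genotypes. Relative to the mean of the 35 genes its log2 level was -0.29, -0.19 and -0.37 in *Slc13a4*+/- mice and 0.37, 0.19 and 0.10 in wild-type mice. The genotypes stayed apart on this scale, by -0.50 on average.

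Genes of the same tissue outside the 35 had a median closer to 0. Of 53 further genes of fluid secretion, solute transport, secreted proteins and choroid plexus lineage, 35 lay below 0 and 18 above, and the median was -0.04. At an unadjusted p under 0.05 in edgeR, 10 of the 53 were lower, against 4.17% of all genes tested. These 10 include the targeted gene *Slc13a4* itself and *Slco1c1*, which is also among the brain endothelium markers given below. Only 1 was higher, against 4.98%. edgeR called none of them, and DESeq2 called 1, *Slc13a4*. The 12 further secreted genes had 11 below 0 and a median of -0.10. They include 1500015O10Rik, which encodes augurin, at -0.31, the ceruloplasmin gene *Cp* at -0.14 and the transferrin gene *Trf* at -0.21. The 19 genes of fluid secretion had 15 below 0 and a median of -0.05 and included the carbonic anhydrase gene *Car2* at -0.16 and the bicarbonate cotransporter gene *Slc4a7* at 0.21. The 14 solute carriers, with the targeted gene *Slc13a4* among them, had 5 genes below 0 and a median of 0.02. The 8 lineage factors had 4 below 0 and a median of -0.03. Many of these genes are also used by glia, neurons or vessels.

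Markers of other cell types were set beside these values. Oligodendrocyte markers were below 0 in 8 of 8 genes with a median of -0.14, which is as low as that of the choroid plexus genes, and 2 of them had an unadjusted p under 0.05, *Mog* at -0.21 and *Mbp* at -0.17. Their summed level was 7710 to 8978 TPM in *Slc13a4*+/- and 8604 to 9495 TPM in wild-type mice. Markers of ependymal cells, the ciliated cells that line the ventricles, were below 0 in 9 of 10 genes with a median of -0.15, and summed to 34.3 to 39.0 TPM against 38.6 to 41.7 TPM. Red cell genes were below 0 in 6 of 6 with a median of -0.16, and summed to 2794 to 3317 TPM against 2564 to 4091 TPM. The genotypes overlapped in each of these sums, and in none of these lists did edgeR or DESeq2 call a gene. No ependymal or red cell gene had an unadjusted p under 0.05 in edgeR.

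Markers of brain endothelium were below 0 in 5 of 7 genes with a median of -0.09, 3 of them lower at an unadjusted p under 0.05 (*Cldn5* at -0.22, *Slco1c1* at -0.10 and *Ly6c1* at -0.15), and summed to 322 to 343 TPM in *Slc13a4*+/- and 340 to 360 TPM in wild-type mice. Those of meningeal fibroblasts, with 6 of 11 below 0 and 177 to 182 TPM against 149 to 179 TPM, and of the stroma and vessels of the choroid plexus, with 3 of 6 below 0 and 156 to 166 TPM against 157 to 168 TPM, had medians of -0.01, with 1 gene at an unadjusted p under 0.05, *Col1a2* at 0.09. Markers of the retinal pigment epithelium were below 0 in 6 of 8 genes tested with a median of -0.26, and 2 had an unadjusted p under 0.05, *Rlbp1* at -0.20 and *Pmel* at -0.60. Their sum did not overlap, at 16.9 to 18.7 TPM in *Slc13a4*+/- and 19.0 to 21.3 TPM in wild-type mice, and most of it was *Rlbp1*, which brain glia also express. Nas2Del_Het_1027 was lowest for the secreted, transport, ependymal and oligodendrocyte lists alike. The part that other cell types have in the lower values of the choroid plexus genes was not tested.

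**Figure D4:**
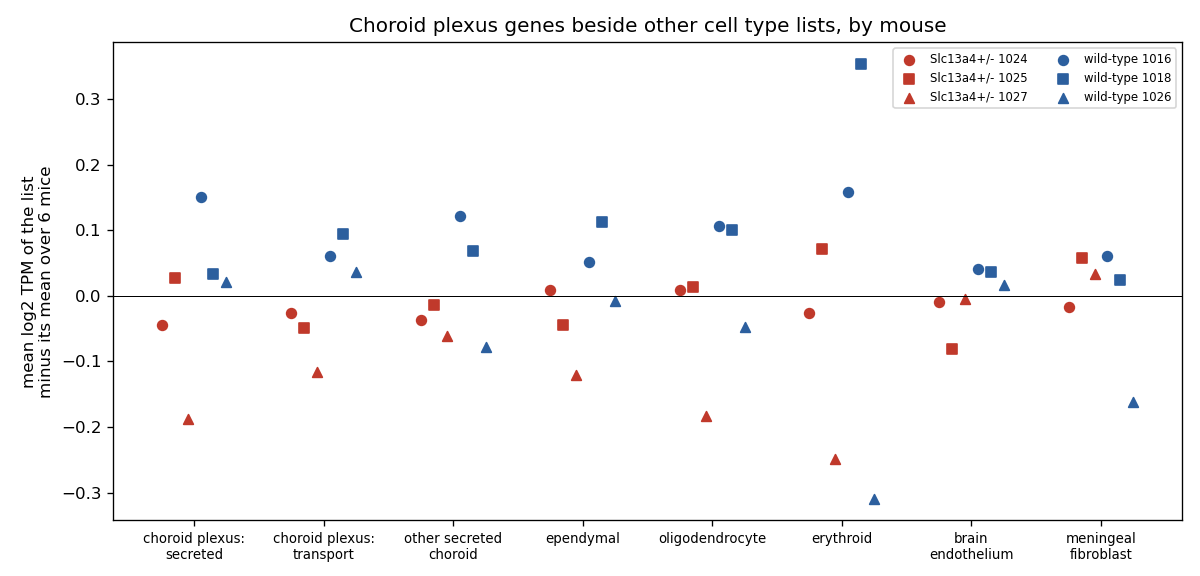
Mean log2 TPM of each gene list in each mouse, minus the mean of that list over the 6 mice, with red for Slc13a4+/- and blue for wild-type mice and 1 marker shape per mouse within a genotype. Nas2Del_Het_1027 is lowest for both choroid plexus lists and for the ependymal and oligodendrocyte lists, and red cell genes spread most between mice of 1 genotype.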

How the data were processed

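The authors extracted RNA from flash-frozen whole forebrain, sequenced stranded, rRNA-depleted libraries as paired reads of 76 bases and quantified transcripts with Salmon 1.2.0. The authors deposited estimated counts for 117135 transcripts, with TPM values (scaled by transcript length) and effective lengths. The sources used here do not name the transcript set or genome build of the Salmon index. Identifiers were matched to GENCODE M21 (GRCm38) for 115973 transcripts. The other 1162, with 0.620% to 0.645% of the counts of a mouse, were left out. Counts were summed per gene and rounded.

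Genotypes were compared in all 6 mice by the two-sided quasi-likelihood test of edgeR 4.0.16 (R 4.3.3; TMM, default filter on low counts). Adjusted p-values (Benjamini-Hochberg) cover all 17096 genes tested, and genes under 0.1 were called. DESeq2 1.42.0, with and without average transcript lengths as offsets, was an alternative, as the study used DESeq2 and this threshold. The scripts were tested on simulated counts with 200 of 17096 genes changed. Of 67 genes changed 1.2-fold, edgeR recovered 22 and DESeq2 without offsets 30. Of 67 genes changed 1.5-fold, edgeR recovered 47 and DESeq2 48. Of 66 genes changed 2-fold, edgeR recovered 58 and DESeq2 57. In the whole simulation, over all of these fold changes, edgeR also called 19 unchanged genes and DESeq2 40. The other alternatives were edgeR with length offsets, other normalizations and filters, leaving out each mouse and, added after seeing the data, leaving out retained-intron transcripts or *Tmem72* and leaving out each mouse in DESeq2.

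The 35 genes and all lists were chosen with earlier results of these data known. All 35 genes are accounted for, in most detail the 10 genes with the highest mean TPM, the 5 with the smallest p in each direction, called genes and those with r under 0.5. From each other list up to 3 genes with the smallest p are named, and *Rpe65* was added as a marker of the retinal pigment epithelium. Rounding and the sharing of reads between similar transcripts limit genes of few counts. Promoter sequences are those of RefSeq for GRCm38. Files were joined and plots drawn in Python 3.11.15.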

Additional observations from a re-analysis of the deposited data

How the results depend on the processing

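Of the 35 choroid plexus genes, 1 was called in DESeq2 with length offsets and 1 without (*Ttr*), 1 with no filter on low counts (*Tmem72*), and 0 to 1 in edgeR and 0 to 3 in DESeq2 when single mice were left out. The 3 were *Ttr*, *Enpp2* and *Col9a3* in DESeq2 without Nas2Del_WT_1026, where 13 of the 35 genes had an adjusted p and 720 of 11013 genes (6.54%) were called. Without Nas2Del_Het_1024 DESeq2 called *Ttr* and *Tmem72*, of 27 with an adjusted p, beside 99 of 13526 genes in all (0.732%). Of the 53 further genes, 1 was called in DESeq2 with offsets and 1 without, 2 with no filter, and 0 to 2 when single mice were left out. *Slc13a4* had a log2 fold change of -0.63 (adjusted p 0.0024) in DESeq2 with offsets, -0.67 (2.83e-04) without and -0.67 (0.0021) with no filter, and -0.76 to -0.58 in edgeR without single mice. In DESeq2 it had -0.64, -0.71 and -0.56 without Nas2Del_Het_1024, Nas2Del_Het_1025 and Nas2Del_Het_1027 and -0.56, -0.64 and -0.70 without Nas2Del_WT_1016, Nas2Del_WT_1018 and Nas2Del_WT_1026. Over all genes tested, edgeR called 1, DESeq2 86 with offsets and 55 without, edgeR with no filter 147, and edgeR without Nas2Del_WT_1026 223. The cause of these differences was not tested.

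The median log2 fold change of the 35 genes ran from -0.17 to -0.09 and their mean log2 TPM differed by -0.13 to -0.07 without single mice, always lower in *Slc13a4*+/-. The secreted minus transport difference turned to 0.0052 on log2 CPM and ran from -0.050 to 0.034 without single mice. The median r was 0.14 on log2 TPM and 0.20 to 0.46 without single mice. Genes near 0 turned direction. With length offsets *Slc4a5* had 0.092 in DESeq2 and 0.094 in edgeR, *Ace* -0.0094 and -0.0078, and *Krt8* -0.00050 in DESeq2, and *Wdr86* had -0.0014 without retained-intron transcripts. Without single mice the ranges were -0.035 to 0.13 for *Cldn1*, -0.22 to 0.17 for *Krt8*, -0.075 to 0.091 for *Krt18*, -0.060 to 0.074 for *Msx1*, -0.0084 to 0.057 for *Ace*, -0.084 to 0.034 for *Kl*, -0.16 to 0.059 for *Lbp*, -0.095 to 0.043 for *Clic6*, -0.26 to 0.068 for *Steap1*, -0.080 to 0.026 for *Col8a1* and -0.025 to 0.22 for *Wdr86*. No analysis paired by litter was possible because which mice shared a litter is not known here.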

Other observations

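Outside all lists, the genes whose level over the 6 mice was most like the mean of the 35 choroid plexus genes were sought among 2238 genes with a mean of at least 1 CPM and a spread of at least the median of the 35. The 10 highest Pearson r belonged to *Lefty1* and *S100b* (0.98 each), *Ifit3b* (0.97), *Cyp4f14* (0.96), *Hist1h2bl* (0.96), *mt-Co2* (0.95), *Tagap* (0.95), *Fermt3* (0.95), *Olig2* (0.95) and *Gm8186* (0.94). *S100b*, a calcium-binding protein gene of glia, and *Olig2*, a transcription factor gene of the oligodendrocyte lineage, were the more abundant of those in the nuclear genome, with means of 91.8 and 34.04 CPM. The values share the same 6 libraries and the same difference between genotypes, and 10 genes chosen as the highest of 2238 have a high r by that choice.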
